A study of Mus musculus with 12 samples.

Results

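The 9 mitochondrial fusion genes Mfn1, Mfn2, Pld6, Opa1, Oma1, Yme1l1, Phb, Phb2 and Stoml2 were followed in RNA sequencing libraries of mouse lumbar spinal cord. They were taken by name from the 49548 genes counted, and all 9 passed the filter on low counts and were among the 15942 genes tested. Mutations of human MFN2 cause the axonal neuropathy Charcot-Marie-Tooth type 2A, and the comparison asked whether RNA of the machinery around this protein differs in the cord of a mouse carrying such a mutation. There were 8 libraries of MFN2 mice and 4 of wild-type (WT) mice, all 30 days old and untreated.

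The MFN2 mice were hemizygous MitoCharc1 animals, line L51Ugfm/J on a B6;D2 background, whose transgene Eno2-MFN2*R94Q places human MFN2 with the R94Q change behind the promoter of rat neuron-specific enolase. They keep their own mouse Mfn2 genes, and the transgene is expected mainly in neurons, while a piece of cord holds RNA of glia, vessels and neurons together. The labels give C57BL/6 for the WT mice, and the study describes WT littermates. Library numbers ran from 41 to 47, with MFN2 at 41 to 43 and WT at 44 to 47, and from 72 to 76, which were all MFN2. A difference between the second run of numbers and WT therefore cannot be told apart from a difference between the runs. If the strain labels hold, a difference from WT in either run also cannot be told apart from one of strain background. Depth lay between 19359454 and 26738930 counts per library, with a median of 23074724 in MFN2 and 22537154 in WT.

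Mitochondria fuse in steps. Mitofusins 1 and 2, GTPases of the outer membrane, tether and join the outer membranes of neighbouring organelles, and Opa1, a GTPase of the inner membrane, then joins the inner ones. Opa1 is cut by the proteases Oma1 and Yme1l1, and prohibitins, ring-forming scaffolds of the inner membrane, help to set how much of it stays uncut. In long axons fusion lets distant mitochondria share their contents, and loss of a mitofusin leaves small, isolated organelles.

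Markers of the tissue were looked at before the genes themselves. Caudal Hox genes, which mark the posterior cord, summed to between 216 and 284 CPM (counts per 1000000 counts of the library, after scaling) in 11 libraries and to 37.8 CPM in MFN2 library 43. In the same library 8 forebrain genes, led by Camk2a, summed to 4685 CPM against 109 to 207 CPM in the other 11. Its 7 motor neuron genes summed to 362 CPM against 1764 to 3178 CPM, and its 6 oligodendrocyte genes to 8133 CPM against 21104 to 33950 CPM. Library 43 thus went against its tissue label. Part of the results over MFN2 libraries are given with and without it, and the others include it unless stated. Schwann cell genes (Prx and Pmp2), the myelin genes of nerve roots, summed to 35.8 CPM in library 43 and 50.4 CPM in MFN2 library 73, and to at most 1.22 CPM elsewhere. Skeletal muscle genes reached 206 CPM in WT library 47 and 200 CPM in MFN2 library 73, against at most 35.5 CPM elsewhere.

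Counts do not compare genes of different length, so levels were also taken per 1000 bases of joined exons (RPKM). On that scale Mfn2 was highest, with 40.2 ± 2.57 RPKM (SD, n = 12 libraries), followed by Opa1 with 32.2 ± 2.24 RPKM and Mfn1 with 17.9 ± 2.00 RPKM. With joined exons as the length, the 3 GTPases that carry out fusion thus stood above the genes of their helpers in every library. Phb followed with 14.0 ± 2.56 RPKM, Stoml2 with 11.6 ± 1.21 RPKM, Phb2 with 9.65 ± 0.580 RPKM and Yme1l1 with 9.34 ± 0.557 RPKM. Oma1, the stress-activated protease, lay at 3.92 ± 0.513 RPKM, and Pld6, an outer-membrane phospholipase that makes phosphatidic acid from cardiolipin, at 0.569 ± 0.121 RPKM.

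Each gene lay above the next in all 12 libraries, with 2 exceptions. Phb lay above Stoml2 in 11 libraries, the exception being library 43, and Phb2 lay above Yme1l1 in 7 libraries. With the longest transcript as the length, Phb2 and Yme1l1 changed places over the 12 libraries, and the levels themselves rose, to 49.1 RPKM for Mfn2 in WT. On that scale Phb, at 26.05 RPKM, lay above Mfn1, at 25.5 RPKM, on average in WT, and Mfn1 lay above Phb in 2 of 4 WT and 7 of 8 MFN2 libraries. Within WT the SD was 2.61% of the mean for Mfn1 and 24.1% for Pld6, whose 12 libraries were the thinnest in reads.

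**Figure D1:**
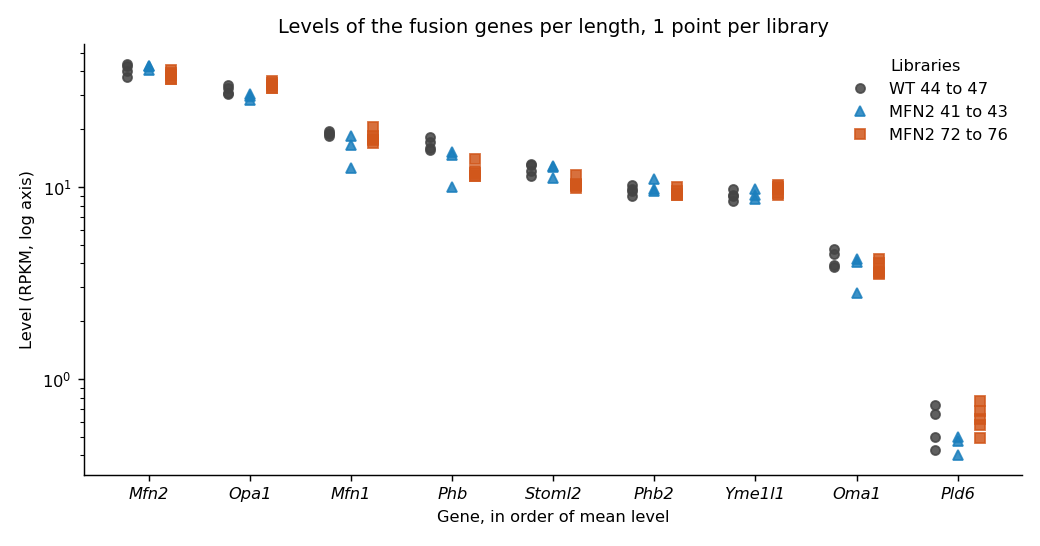
Level of each fusion gene (vertical axis, RPKM on a log scale) in every library, with genes on the horizontal axis in order of their mean; circles are 4 WT libraries, triangles MFN2 libraries 41 to 43 and squares MFN2 libraries 72 to 76. With joined exons as the length, Mfn2, Opa1 and Mfn1 lie above the other 6 genes in every library. Library 43 is the lowest triangle of Mfn1, Opa1, Oma1, Phb, Stoml2 and Pld6, and the highest of Mfn2, Yme1l1 and Phb2.

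None of the 9 fusion genes passed a false discovery rate (FDR) of 0.05 between 8 MFN2 and 4 WT libraries in the quasi-likelihood test of edgeR, and neither did any other of the 15942 genes tested (0.00%). At an unadjusted p under 0.05 stood 1 fusion gene, Phb, against 2386 genes overall (15.0%). DESeq2 called the same single fusion gene against 200 genes overall (1.25%). The median log2 fold change over the 9 genes was -0.047, beside 0.0038 over all genes tested, and 7 of the 9 values were below 0.

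The MFN2 libraries of the second run gave another picture. Against the same 4 WT libraries, 2 of 9 fusion genes were lower in libraries 72 to 76, Phb and Stoml2, and none was higher, by edgeR at an FDR of 0.05. Over all 15743 genes tested there, 12.7% were lower and 11.1% higher, so about 1 lower gene among 9 would match the share of all genes. In libraries 41 to 43, which share the number run of WT, none of 8 tested fusion genes was called, beside 1 of 15200 genes (0.00658%), and none had an unadjusted p under 0.05, beside 7.12% of all genes. Pld6 was too thin to be tested in that comparison. These 3 comparisons use the same WT libraries and are not independent of each other.

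Between the runs of MFN2 libraries, at 1 genotype, none of the 9 fusion genes passed in edgeR either, beside 8.40% of all genes. Opa1 and Stoml2 had an unadjusted p under 0.05 there, beside 28.7% of all genes, and DESeq2 called both, beside 15.9%. Without library 43, edgeR called Phb and Stoml2 between the runs, beside 14.0% of all genes. Nothing particular to the fusion genes is read from these counts. Against WT, leaving out library 43 gave no call among the 9 fusion genes over all MFN2 libraries. The log2 fold change of the remaining 7 MFN2 libraries against WT was then -0.063 for Mfn2, 0.041 for Opa1, -0.13 for Oma1, 0.063 for Yme1l1, -0.029 for Phb2, -0.16 for Stoml2 and 0.025 for Pld6.

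**Figure D2:**
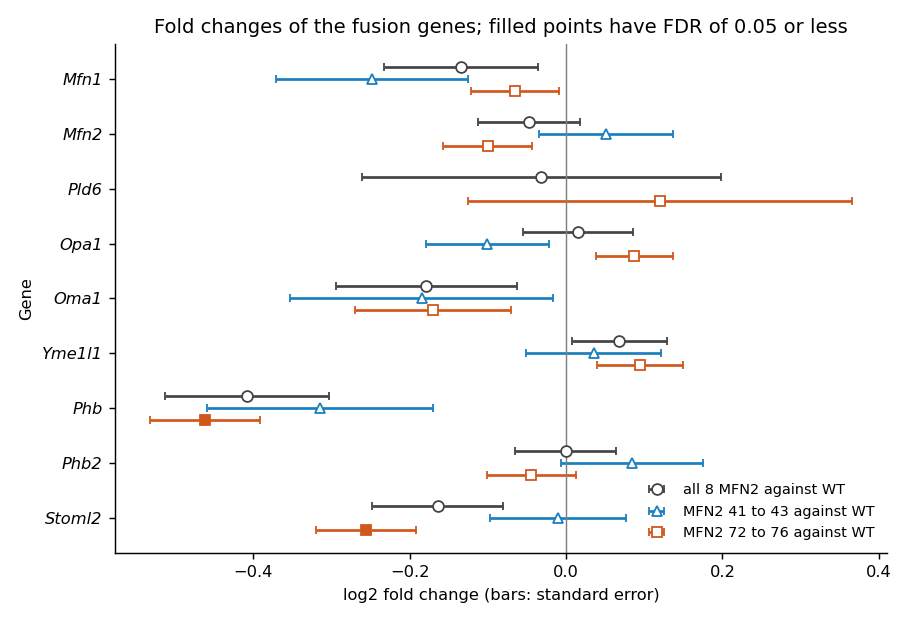
log2 fold change of each fusion gene against the same 4 WT libraries (horizontal axis; bars are 1 standard error) for all 8 MFN2 libraries (circles), libraries 41 to 43 (triangles) and libraries 72 to 76 (squares). The only filled points, those with an FDR of 0.05 or less in edgeR, are Phb and Stoml2 in libraries 72 to 76.

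Mfn1 and Mfn2 are the outer-membrane pair. They lie on different chromosomes, Mfn1 at chr3:32529465-32579239 on the plus strand and Mfn2 at chr4:147873599-147904704 on the minus strand (GRCm38). In their coding sequences 66.5% of 2205 aligned bases were identical, and the longest identical run was 21 bases, so a read of 75 bases can be told apart between them. The stretch below, exonic and coding and spanning an exon junction in both genes, covers the codon that R94Q changes in the human transgene. It is shown because the transgene differs from mouse Mfn2 at this codon, and capitals mark codon 94 of mouse Mfn2 and the aligned codon 73 of Mfn1, both of which code for arginine.
Mfn2: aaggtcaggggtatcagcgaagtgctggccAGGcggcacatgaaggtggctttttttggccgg
Mfn1: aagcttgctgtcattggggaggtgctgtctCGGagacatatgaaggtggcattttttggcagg
Of these 63 bases 44 were identical, 10 codons being shown on each side, between chr4:147890276-147894624 (minus strand) for Mfn2 and chr3:32534312-32538270 (plus strand) for Mfn1. The counts were made on the mouse genome, and how many reads of the human transgene fell on mouse Mfn2 was not tested.

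Mfn1 stood at 115, 117, 113 and 120 CPM in the 4 WT libraries. The 8 MFN2 libraries ran from 76.9 to 125 CPM with a median of 108 CPM, and 7 of them lay below every WT library. The lowest of all, 76.9 CPM, was library 43, and the highest, 125 CPM, was MFN2 library 76, so the groups overlapped. The log2 fold change was -0.13 (SE 0.098, edgeR FDR 0.504), and without library 43 it was -0.078. All 3 libraries of the first run, at 113, 101 and 76.9 CPM, were below WT, with a log2 fold change of -0.25 (SE 0.12, edgeR FDR 0.622), which was -0.11 (edgeR FDR 0.908) without library 43. In that comparison 4.29% of all genes had levels below WT without overlap.

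Mouse Mfn2 stood at 194, 222, 228 and 209 CPM in WT, and its 8 MFN2 libraries, from 190 to 223 CPM with a median of 207 CPM, lay across the same range. Its ratio to Mfn1 within a library, which no scaling between libraries can move, was 1.69 to 2.02 in WT and 1.52 to 2.90 in MFN2. The difference in mean log2 ratio was 0.099 and did not pass a two-sided exact permutation test over the 495 splits of 12 libraries (p = 0.549; adjusted over 3 ratios, 0.549). The ratio of 2.90 was that of library 43, and without it the difference was 0.018. Between the 2 runs of MFN2 libraries the ratio was 1.79 in the second and 2.28 in the first (difference in mean log2 ratio -0.35, exact permutation p = 0.0714, adjusted 0.214). Without library 43 the ratio of the first run was 2.02 and the difference -0.18 (exact permutation p = 0.333).

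Pld6 was counted only 15 to 31 times per library, at about 1 CPM. Its WT libraries lay at 0.873, 0.754, 1.28 and 1.15 CPM and overlapped those of MFN2. The log2 fold change of -0.032 carried an SE of 0.23 (edgeR FDR 0.955), the largest SE of the 9 genes. Between the MFN2 runs it was 0.45 (SE 0.25, edgeR FDR 0.254).

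The inner-membrane GTPase Opa1 (chr16:29579334-29654884, plus strand) stood at 243, 240, 259 and 267 CPM in WT. It lay at 234, 241 and 223 CPM in MFN2 libraries 41 to 43, and at 281, 258, 268, 260 and 274 CPM in libraries 72 to 76. The WT values thus overlapped those of both MFN2 runs, while the runs did not overlap each other. Run against run, at the same genotype, the log2 fold change was 0.21 (SE 0.060) with an edgeR FDR of 0.0531, while 9.62% of all genes lay higher without overlap. Against WT it was -0.10 for the first run and 0.087 for the second (edgeR FDR 0.669 and 0.217), and 0.016 for all 8 libraries (edgeR FDR 0.924).

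The proteases that cut Opa1 did not pass the test of edgeR in any of the comparisons. Oma1 (chr4:103313812-103371868, plus strand) stood at 8.21, 10.2, 9.61 and 8.45 CPM in WT. The MFN2 libraries ran from 6.01 to 9.08 CPM with a median of 8.20 CPM, and 4 of 8 lay below every WT library, with the lowest in library 43. Its log2 fold change was -0.18 (SE 0.12, edgeR FDR 0.455). It was -0.18 for libraries 41 to 43 and -0.17 for libraries 72 to 76 (edgeR FDR 0.695 and 0.234), but -0.025 (edgeR FDR 0.990) for libraries 41 and 42 without library 43. Yme1l1 (chr2:23156369-23199260, plus strand), which trims Opa1 steadily in resting cells, stood at 71.8, 67.4, 72.7 and 78.0 CPM in WT and at 69.4 to 82.0 CPM in MFN2, with a median of 76.2 CPM. Its log2 fold change was 0.068 (SE 0.061, edgeR FDR 0.584).

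The ratio of Oma1 to Yme1l1 counts sets RNA of the stress-activated protease beside that of the steady one, without correction for length. Protein amount and activity were not measured. This ratio was 0.109 to 0.152 in WT and 0.0772 to 0.126 in MFN2, and 5 of 8 MFN2 libraries lay below every WT library. The difference in mean log2 ratio was -0.25 and did not pass the exact permutation test (p = 0.115; adjusted over 3 ratios, 0.173). Without library 43 it was -0.19 (exact permutation p = 0.164), and without WT library 45 it was -0.16 (exact permutation p = 0.333). By run it was -0.26 for libraries 72 to 76 (exact permutation p = 0.0873) and -0.24 for libraries 41 to 43 (exact permutation p = 0.429), of which -0.0023 (exact permutation p = 1.0) was left for libraries 41 and 42.

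**Figure D3:**
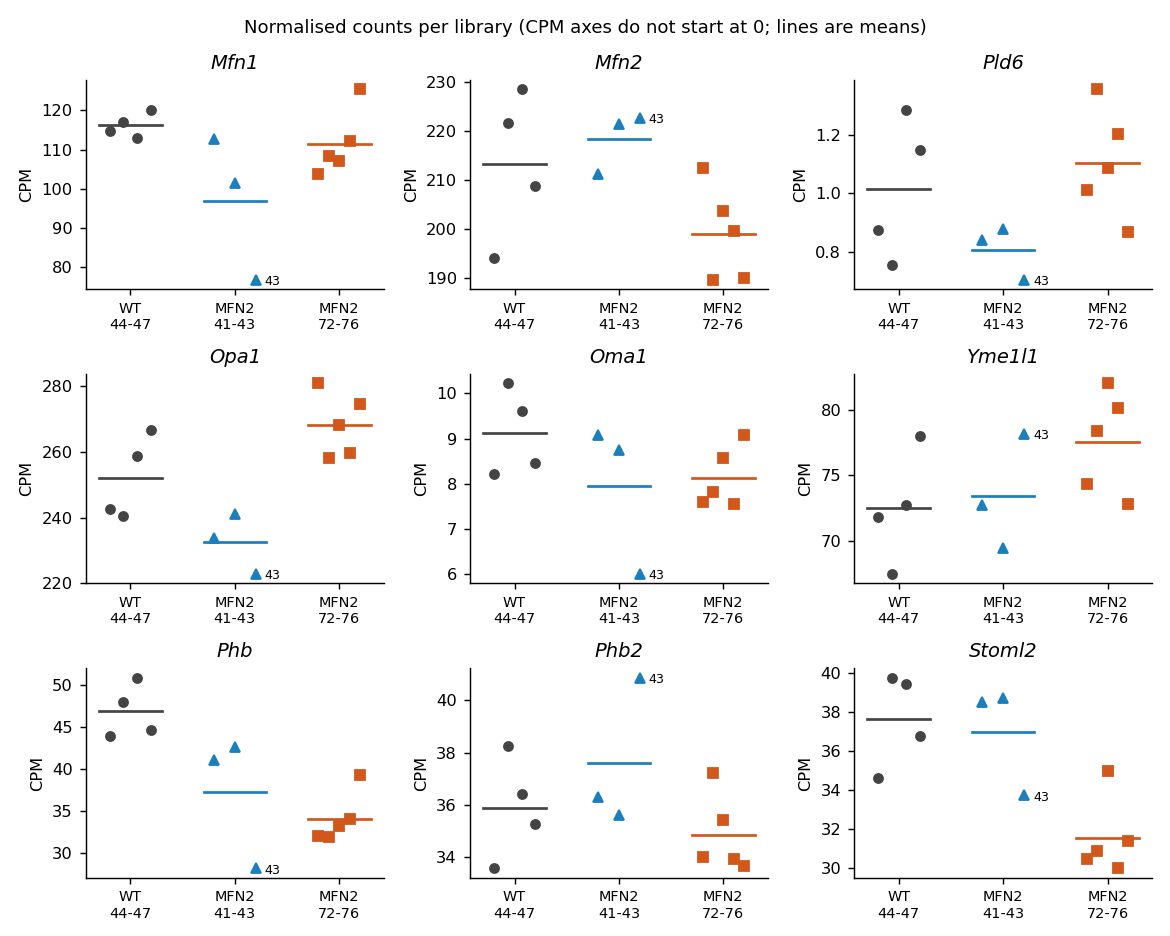
Normalised counts (vertical axes, CPM, not starting at 0) of the 9 fusion genes in every library, with WT 44 to 47 as circles, MFN2 41 to 43 as triangles and MFN2 72 to 76 as squares; horizontal lines are means and library 43 is marked. All 8 MFN2 points of Phb lie below the 4 WT points, and the MFN2 runs of Opa1 do not overlap each other.

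Phb (chr11:95666957-95680773, plus strand) codes for prohibitin, 1 of the pair of proteins that alternate in the prohibitin ring, and Phb2 (chr6:124712336-124716950, plus strand) for its partner. Phb was the single fusion gene whose groups did not overlap. It stood at 43.9, 48.0, 50.9 and 44.7 CPM in WT. It lay at 41.1, 42.6 and 28.2 CPM in MFN2 libraries 41 to 43, and at 32.03, 31.9, 33.2, 34.1 and 39.3 CPM in libraries 72 to 76.
All 8 MFN2 libraries were thus below every WT library, a pattern shown by 1.07% of all genes tested in this direction. Over the 12 libraries Phb fell short of an FDR of 0.05 in edgeR, with a log2 fold change of -0.41 (SE 0.10, unadjusted p = 0.00183, FDR 0.254). DESeq2 placed it just past the threshold, at -0.40 with an adjusted p of 0.0454. In libraries 72 to 76 alone Phb fell by 27.4% (log2 fold change -0.46, SE 0.070, edgeR FDR 0.00102), where 10.3% of all genes did not overlap in this direction. In libraries 41 to 43 the log2 fold change was -0.31 (SE 0.14, edgeR FDR 0.622), and in libraries 41 and 42 alone, without library 43, it was -0.15 (edgeR FDR 0.897). Without library 43 all 7 remaining MFN2 libraries gave -0.37 (edgeR FDR 0.0814).

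Phb2 did not pass the test. It stood at 33.6, 38.2, 36.4 and 35.3 CPM in WT and at 33.6 to 40.9 CPM in MFN2, with a median of 35.5 CPM and the highest value in library 43. The log2 fold change was -0.00018 (SE 0.065, edgeR FDR 0.999).

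The ratio of Phb to Phb2 counts within each library set the partners side by side. It was 1.31, 1.25, 1.40 and 1.27 in the WT libraries. It was 1.13, 1.20 and 0.690 in MFN2 libraries 41 to 43, and 0.942, 0.857, 0.938, 1.00 and 1.17 in libraries 72 to 76. Every WT library thus held more Phb than Phb2 counts by at least 1.25 times, and no MFN2 library reached that ratio. The mean log2 ratio was 0.42 lower in MFN2 (difference -0.42; two-sided exact permutation p = 0.0101, adjusted over 3 ratios 0.0303, with 0.00202 the smallest p the design allows). The adjusted call was not stable, since it was lost under 10 of 18 alternatives, among them leaving out any 1 of WT libraries 44 to 47 (adjusted 0.0909) or of MFN2 libraries 72, 74 and 75 (adjusted 0.0545).
The difference was -0.42 for each run against the same WT libraries, but that of the first run rested on library 43. For libraries 72 to 76 the exact permutation p was 0.0159 (adjusted 0.0476). For libraries 41 to 43 it was 0.0286 (adjusted 0.0857), the smallest p that 3 against 4 allow. For libraries 41 and 42 alone, without library 43, the difference was -0.17 (exact permutation p = 0.0667, the smallest that 2 against 4 allow). Over all 7 MFN2 libraries other than 43 it was -0.35 (exact permutation p = 0.00606). Between the runs of MFN2 libraries the difference was -0.0022 (exact permutation p = 1.0) with library 43 and -0.25 (exact permutation p = 0.190) without it.

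**Figure D4:**
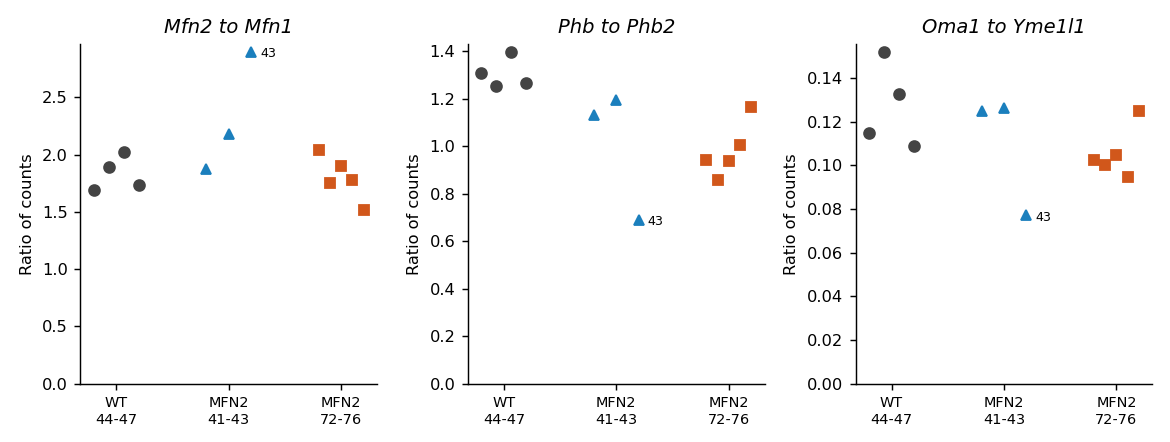
Ratio of counts of 2 fusion genes within each library (vertical axes start at 0) for Mfn2 to Mfn1, Phb to Phb2 and Oma1 to Yme1l1, by WT 44 to 47 (circles), MFN2 41 to 43 (triangles, library 43 marked) and MFN2 72 to 76 (squares). Phb to Phb2 is 1.25 or more in all 4 WT libraries and 1.20 or less in all 8 MFN2 libraries, while the other ratios overlap.

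The Phb value is uncertain because part of its sequence has copies elsewhere. Of 2730 stretches of 75 bases, the read length, in its transcripts, 24.5% occur unchanged in Gm7666, a processed pseudogene at chr15:6653923-6654741 on the plus strand, which lies inside Fyb, and 9.71% occur in transcripts of Fyb itself, a gene of immune cells. Smaller shares were found in Gm2245 (2.78%) and Gm7781 (0.549%). Gm7666 held 14, 12, 14 and 11 counts in WT and 14, 12 and 3 in MFN2 libraries 41 to 43, against 77, 79, 82, 38 and 50 in libraries 72 to 76. It thus split by run of library numbers at the same genotype, with a log2 fold change of 2.91 between the MFN2 runs (SE 0.41, edgeR FDR 0.00415) and 2.29 against WT in the second run (SE 0.30, edgeR FDR 0.000524).
Fyb itself did not pass the test against WT (edgeR FDR 0.983). With the counts of Gm7666 added to Phb, the log2 fold change became -0.35 over all 12 libraries (edgeR FDR 0.254) and -0.36 in libraries 72 to 76 (edgeR FDR 0.00246). With both Gm7666 and Fyb added it became -0.30 (edgeR FDR 0.263) and -0.29 (edgeR FDR 0.00649). The difference in the log2 ratio to Phb2 became -0.36 (exact permutation p = 0.0162, adjusted over 3 ratios 0.0485) and -0.30 (exact permutation p = 0.0283, adjusted 0.0848), so the adjusted call was lost with both added.

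The regions upstream of the paired prohibitin genes were set side by side since Phb fell in the second run and Phb2 did not pass the test. Each is the 250 bases before the start of the gene in RefSeq (GRCm38.p6), at chr11:95666707-95666956 for Phb and chr6:124712039-124712288 for Phb2, both on the plus strand. Capitals mark CCGGAAG on either strand, a motif of ETS factors such as GABPA, which is known for controlling nuclear genes of mitochondrial proteins.
Phb: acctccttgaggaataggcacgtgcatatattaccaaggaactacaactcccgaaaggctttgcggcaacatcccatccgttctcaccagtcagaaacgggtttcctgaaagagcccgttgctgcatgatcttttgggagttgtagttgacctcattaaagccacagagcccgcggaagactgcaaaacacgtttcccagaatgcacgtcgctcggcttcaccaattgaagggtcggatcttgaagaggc
Phb2: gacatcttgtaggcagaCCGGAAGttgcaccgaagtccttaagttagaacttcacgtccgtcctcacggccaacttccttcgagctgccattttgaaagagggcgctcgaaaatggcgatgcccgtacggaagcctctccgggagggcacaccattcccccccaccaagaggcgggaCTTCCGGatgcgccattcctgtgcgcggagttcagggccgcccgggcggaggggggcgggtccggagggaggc
The ETS letters were found in windows of 4 of 9 fusion genes, Mfn1, Yme1l1, Phb2 and Stoml2, and in 7.83% of 27025 genes with such a window. The letters GCATGCGC, the core of the NRF1 motif, another regulator of genes for mitochondrial proteins, were found for Opa1 alone, 1 of 9, and in 2.56% of genes. Neither TGACGTCA, the cyclic AMP response element, nor AAGATGGC, the core of the YY1 motif, was found for any of the 9, beside 1.77% and 1.83% of genes. Longer forms of 2 motifs had been searched before these cores. The long form of NRF1, of 10 letters with 1 free base, was found for Opa1, Oma1 and Pld6, 3 of 9, and in 4.23% of genes, so the count for NRF1 depended on the form. The long form of YY1, of 11 letters, was found for none of the 9 and in 0.248% of genes. Both strands were read. The long form of YY1 contains its core, and that of NRF1 contains its core only where the free base is A. No other motif contains another. The windows of Phb and Mfn2 held none of these letters.

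Stoml2 (chr4:43027690-43031710, minus strand) codes for a stomatin-like protein that binds prohibitins and protects Opa1 from being cut. It stood at 34.6, 39.8, 39.4 and 36.8 CPM in WT and at 38.5, 38.7 and 33.7 CPM in MFN2 libraries 41 to 43. In libraries 72 to 76 it stood at 30.5, 30.9, 35.0, 30.0 and 31.4 CPM. In that run 4 of 5 libraries lay below every WT library, and Stoml2 fell by 16.3% (log2 fold change -0.26, SE 0.064, edgeR FDR 0.0133). In libraries 41 to 43 the log2 fold change was -0.010 (SE 0.088, edgeR FDR 0.971) and over all 8 it was -0.16 (SE 0.084, edgeR FDR 0.361). Run against run, both MFN2, it was -0.23 (SE 0.076) with an edgeR FDR of 0.0764, and -0.29 (edgeR FDR 0.0237) without library 43. Stoml2 shares 502 exon bases with Gm26643 on the opposite strand, which held on average 1.75 counts per library.

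Markers of some other cell types moved with the second run. Of 5 astrocyte genes, led by Slc1a2, 4 were lower in libraries 72 to 76 than in WT in edgeR. Their summed level was 4844, 5215, 4981, 4890 and 6282 CPM in that run, against 6813, 7635, 6664 and 6979 CPM in WT. All 5 libraries thus lay below WT, whereas libraries 41 to 43 stood on both sides of it, at 8328, 5847 and 5198 CPM.
Of 5 microglia genes, led by Csf1r, 4 were lower as well. They summed to 87.0, 83.4, 85.7, 74.02 and 92.2 CPM in libraries 72 to 76, against 93.8, 126, 108 and 114 CPM in WT and 145, 90.7 and 154 CPM in libraries 41 to 43. None of these genes was at 0. None of 6 oligodendrocyte and 7 motor neuron genes was called in edgeR or DESeq2, with 1 of each at an unadjusted p under 0.05 in edgeR. Of 5 neuron genes Syt1 was higher at 0.47 and Snap25 lower at -0.18 (edgeR FDR 0.0327 and 0.0414), and of 4 endothelium genes Cldn5 was lower at -0.82 (edgeR FDR 0.00685). The part of these cells in the lower Phb and Stoml2 counts was not tested, and in bulk RNA fewer cells of a type and less RNA per cell cannot be told apart. Within 500 kb of Phb 14 genes were tested, of which 4 were lower and none higher in the second run, and within 500 kb of Stoml2 2 of 18 were lower and 2 higher, beside 12.7% lower and 11.1% higher of all genes. About 2 lower genes near each would match that share.

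The other genes of the pathway were read from the same fits. None of them passed an FDR of 0.05 in edgeR between all 8 MFN2 and 4 WT libraries, and none did in libraries 41 to 43. At an unadjusted p under 0.05 over all 8 stood 2 of 9 regulators of outer-membrane fusion, none of 15 genes of Opa1 processing, 3 of 10 fission genes and 3 of 10 genes for mitochondrial content, beside 15.0% of all genes. In libraries 41 to 43 it was only 1 gene of Opa1 processing, beside 7.12% of all genes. DESeq2 called Cox4i1 alone among these 4 lists over all 8, beside 1.25% of all genes. The calls that follow are for libraries 72 to 76 against WT, beside 12.7% of all genes lower and 11.1% higher, and they share the limits of that run.

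Among 9 regulators of outer-membrane fusion, 3 were lower, with a median log2 fold change of -0.098 beside -0.00066 over all genes. Pink1, the kinase that marks damaged mitochondria, fell with a log2 fold change of -0.59 (SE 0.080, edgeR FDR 0.000635). It stood at 174, 201, 181, 171 and 202 CPM in libraries 72 to 76 and at 232, 293, 301 and 290 CPM in WT, without overlap. In that comparison 10.3% of all genes lay lower without overlap. In libraries 41 to 43 Pink1 stood at 274, 272 and 186 CPM, so the first 2 lay within the WT range and library 43 below it.
March5, a ubiquitin ligase of the outer membrane, was at -0.31, and Usp30, the deubiquitinase there, at -0.26.

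Of 15 genes of Opa1 processing, the prohibitin ring and cristae lipid, 2 were higher and 1 lower, with a median of 0.017. Prelid1, which carries phosphatidic acid to the inner membrane, was at 0.18, and Immt, the mitofilin of cristae junctions, at 0.13. Opa3, whose mutations also cause optic atrophy, was at -0.19. Immt and Opa3 also differed between the runs of MFN2 libraries, at 0.31 and -0.27 (edgeR FDR 0.0230 and 0.0189), that is without a difference in genotype.

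Of 11 fission genes 10 were tested, and 3 were lower and none higher, with a median of -0.16. Fis1, an outer-membrane adaptor, fell with a log2 fold change of -0.48 (SE 0.064, edgeR FDR 0.000595). Inf2, a formin, was at -0.42 and Mff, the receptor of the fission GTPase, at -0.24, while that GTPase itself, Dnm1l, was at -0.027 and did not pass the test. Mff differed between the MFN2 runs too, at -0.19 (edgeR FDR 0.0357), and March5 at -0.30 (edgeR FDR 0.0387). Pink1 and Fis1 were at -0.39 and -0.28 between the runs (edgeR FDR 0.0742 and 0.0844), and without library 43 both passed, at -0.55 and -0.39 (edgeR FDR 0.00327 and 0.00836).

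Of 10 nuclear genes for abundant mitochondrial proteins, which stand for mitochondrial content, 4 were lower and none higher, with a median of -0.095. These were Cox4i1 at -0.36, Vdac1 at -0.21, Cs at -0.18 and Atp5b at -0.15. The summed level of all 10 genes was 3196, 3033, 3117, 3091 and 3077 CPM in libraries 72 to 76, against 3244, 3377, 3469 and 3210 CPM in WT. It was 3165, 3337 and 2801 CPM in libraries 41 to 43. All 5 libraries of the second run lay below every WT library in this sum, as did libraries 41 and 43 of the first. The fusion genes, with 2 lower of 9 and a median of -0.065, stood within the range of the other lists, whose medians ran from -0.16 to 0.017. Vdac1 also differed between the MFN2 runs, at -0.20 (edgeR FDR 0.0469), but not past the threshold without library 43 (-0.15, edgeR FDR 0.0661).

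**Figure D5:**
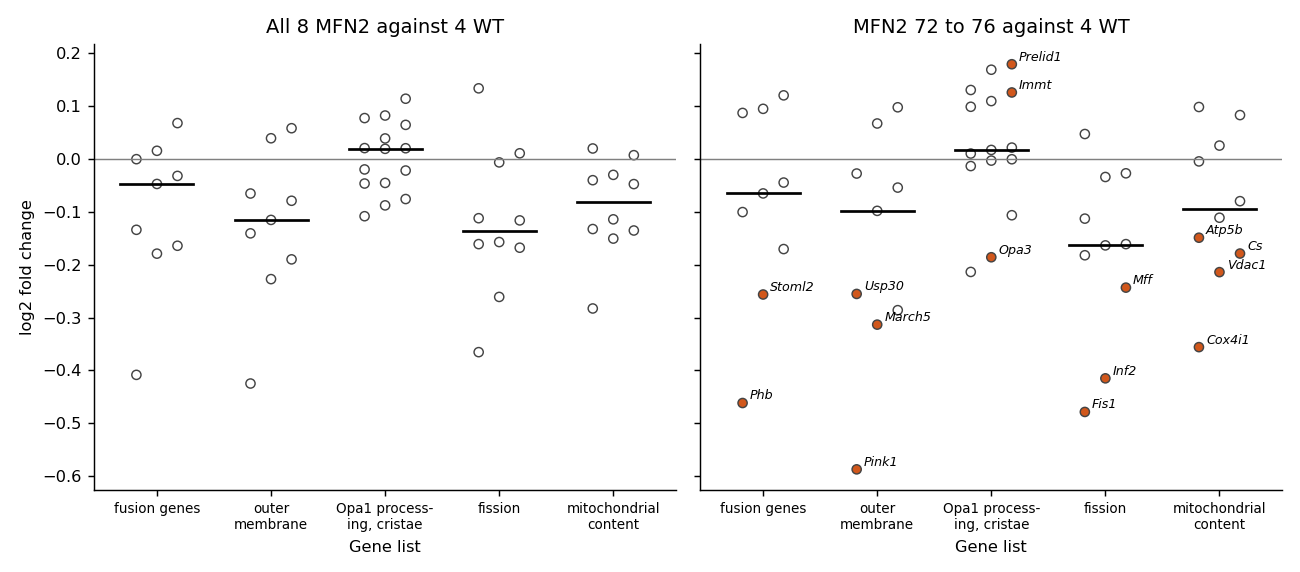
log2 fold change (vertical axis) of each gene of 5 lists, 1 point per gene, for all 8 MFN2 libraries (left) and libraries 72 to 76 (right) against the same 4 WT libraries; lines are medians and filled, named points have an FDR of 0.05 or less in edgeR. No point is filled on the left, and on the right the filled points lie on both sides of 0.

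The genes most like the 3 GTPases in pattern were taken over the 11 libraries other than 43, each centred on the mean of its set (WT and the 2 MFN2 runs), by Pearson correlation of log2 CPM over 15942 genes. For Mfn1 they were Acss2 (0.976), Shisa4 (0.969) and Idi1 (0.967). For Mfn2 they were Aplp2 (0.975) and Fam20b (0.965), and for Opa1 Tubgcp4 (0.900), Gm6055 (0.898) and Bco2 (0.895). No gene named here was listed for more than 1 of the 3. The genes of a library share its cell makeup and depth, which differed between libraries, so these values are a description and carry no test.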

How the data were processed

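RNA of lumbar spinal cord was sequenced from 8 MFN2 and 4 WT mice. For each library the authors deposited counts of reads per gene, whole numbers with no normalisation, after trimming the paired reads of 75 bases and mapping them with STAR (GRCm38). How reads were assigned to genes, and whether strand was used, is not given in the sources used here, which also name the library kit in different ways, so reads of a gene and an overlapping antisense gene were not separated. The deposited counts hold 0 genes of the mitochondrial chromosome. Symbols were found for 49289 of 49548 gene IDs in GENCODE M21.

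Genes above 1 CPM in at least 3 libraries were tested with the quasi-likelihood test of edgeR 4.0.16 (R 4.3.3, legacy form, robust, TMM scaling) with Benjamini-Hochberg adjustment over all genes tested, at an FDR of 0.05. CPM and RPKM use the same scaling. DESeq2 1.42.0 and limma 3.58.1 were alternatives. Within-library ratios, with 0.5 added to each count, were compared by exact permutation tests. The fits were first tested on simulated data with a dispersion of 0.02. Of 100 simulated log2 changes of 0.4, 22 were recovered for MFN2 against WT and 21 for libraries 72 to 76 against WT. Of 100 changes of 1, 100 and 99 were recovered. A gene that did not pass may therefore still differ by about 0.4 or less. Any pair of libraries of a genotype differed in at least 15700 of 15942 genes, so none was a copy. The text names the 9 fusion genes, the genes of the 4 other mitochondrial lists past the threshold in any comparison, and the 3 genes most like each GTPase. Cell type markers are given mainly as counts and sums, and those named were chosen after their values were seen. A few genes under this rule or in the lists are not reported here, and the counts and sums of their lists were made without them. The members and lists were chosen with earlier results of these data known.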

Additional observations from a re-analysis of the deposited data

Results flagged for a closer look

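In MFN2 library 43, Mfn1 (76.9 CPM) and Oma1 (6.01 CPM) stood far below the other 7 MFN2 libraries. On the log2 scale the gap to the nearest library was 0.567 of the whole range for Mfn1 and 0.553 for Oma1, beyond what a single group of this size shows in 1 of 20 cases. Of 24 sets of values looked at, each within 1 genotype, 2 stood out, where chance gives 1.2. Both were from library 43, so they are not independent of each other. Library 43 is also the library with high forebrain and low caudal Hox genes, and the part of its tissue makeup in the low values was not tested.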

How the results depend on the processing

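No paired analysis was possible because library numbers are unique, so the genotypes have none in common. Between all MFN2 and WT libraries, the count of 0 genes past an FDR of 0.05 in edgeR became 200 in DESeq2, 1 with libraries 41 to 43, 1 with libraries 41 and 42, 3746 with libraries 72 to 76, and 0 to 19 when single libraries were left out, the 19 being without library 43. The count of 0 fusion genes became 1 (Phb) in DESeq2 and 2 (Phb and Stoml2) with libraries 72 to 76, and was 0 without any single library. In libraries 72 to 76 against WT, 2350 to 4517 genes were called when single libraries were left out, the lowest without WT library 45, and 2 fusion genes each time. There, scaling by library size alone added Opa1 as another call. Between the runs of MFN2 libraries, 1339 genes became 2536 in DESeq2, 815 without a filter and 501 to 2217 without single libraries, the lowest without library 74 and the highest without library 43. The fusion genes called there, 0, became 2 in DESeq2 (Opa1 and Stoml2), 1 by library size and 1 by upper quartile (Opa1), and 0 to 2 without single libraries, with Opa1 called without library 42 and Phb and Stoml2 without library 43. The causes were not tested.

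Mfn1, Oma1 and Phb kept their sign under every alternative, Oma1 between -0.23 and -0.025 and Phb between -0.46 and -0.15 on the log2 scale with an adjusted p between 0.00102 and 0.897. The other 6 genes changed sign under some alternatives. Mfn2 became 0.051 with libraries 41 to 43, 0.0037 by library size, 0.035 with the run as a covariate and 0.030 with libraries 41 and 42. Opa1 became -0.10 with libraries 41 to 43, -0.12 with the run and -0.077 with libraries 41 and 42, and ranged from -0.0064 to 0.043 without single libraries. Yme1l1 became -0.019 and Stoml2 0.046 with libraries 41 and 42. Phb2 became 0.0069 in DESeq2, 0.084 with libraries 41 to 43, 3.9e-05 with edgeR's own filter, 0.050 by library size, 0.067 with the run, 0.0089 by upper quartile, 0.012 with libraries 41 and 42, and ranged from -0.031 to 0.032 without single libraries. Pld6 became 0.12 with libraries 72 to 76, 0.022 by library size and -0.32 (FDR 0.544, edgeR) with the run, its largest move, and ranged from -0.15 to 0.10 without single libraries. The difference from WT in the Mfn2 to Mfn1 log2 ratio became -0.032 with libraries 72 to 76. The Phb to Phb2 difference lay between -0.46 and -0.30 under 17 alternatives, and became -0.17 (exact permutation p = 0.0667) with libraries 41 and 42, which cannot reach p = 0.05. Its p adjusted over 3 ratios was 0.05 or less under 8 of 18 alternatives and was 0.0545 to 0.200 under the other 10. Scaling by library size alone moved the median of all genes to 0.054.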
